A study of Homo sapiens with 14 samples.

Results

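The ABC drug efflux transporters are membrane pumps that use ATP to carry drugs and conjugated metabolites out of the cell. The 9 genes ABCB1, ABCC1, ABCC2, ABCC3, ABCC4, ABCC5, ABCC6, ABCC10 and ABCG2 were examined, out of 20992 genes named on the array, and 17 of its 50599 non-control probes read them. The genes were selected on family membership with the A172 values of ABCC3 known, since both ABCC3 probes stood in the study's list of transcripts lower after knockdown in that line. The A172 values of the 9 genes are therefore a description: no p-value is given for them, and counts of A172 probes past the limits are printed with nothing read from them. The U87 cultures are other samples than those of that list and were tested, although earlier results of both lines were known when the genes were chosen.

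A172 and U87 are established human glioblastoma cell lines. Each was electroporated with a negative control siRNA that has no target RNA, or with siLINC00152, an siRNA against exon 1 of the long non-coding RNA LINC00152, and total RNA was prepared 40 hours later by the labels, while the methods of the study name a later time. There were 3 control and 3 siLINC00152 arrays for A172 and 4 control and 4 siLINC00152 arrays for U87, each array holding Cy3-labelled RNA of a single culture, and a control and a knockdown array of the same set number form a pair. The comparison in each line asks which transcripts shift when LINC00152 is depleted, and a further comparison asks whether the shift differs between the lines.

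ABC transporters share a pair of nucleotide-binding domains that hydrolyse ATP and membrane-spanning domains that form the path for the substrate. ABCB1 and ABCG2 are best known in the brain for the blood-brain barrier, where they return drugs to the blood, while many members of the ABCC subfamily export glutathione, glucuronide or sulfate conjugates. Several of these genes are known targets of receptors that sense foreign compounds and of the oxidative stress factor NFE2L2, mostly from work on liver and intestine.

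The labels give the target of the siRNA as exon 1 and do not say which siRNA was used. The study lists siLINC00152 #1 and #2 against that exon and names #1 for the knockdown measured by qPCR in both lines, in the figure of the array experiment. The sequence of #1, of 25 bases, is shown for that reason:

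siLINC00152 #1: tgcctgtcttcagatcttcacagca

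The LINC00152 signal was lower on the knockdown arrays of both lines. Levels are log2 processed signals minus the 75th percentile of the same array, so a level of 0 equals that percentile. On probe A_24_P273143 the LINC00152 level was 2.52 ± 0.10 (SD, n = 3) in A172 controls and -0.10 ± 0.33 (SD, n = 3) after siLINC00152, which left 16.3% of the control signal. In U87 the same probe was at 1.82 ± 0.09 (SD, n = 4) in controls and -0.91 ± 0.21 (SD, n = 4) after siLINC00152, which left 15.1%. The limma adjusted p was 0.000731 in A172 (log2 fold change -2.61, lower in 3 of 3 pairs) and 4.96e-05 in U87 (log2 fold change -2.73, lower in 4 of 4 pairs). The other 3 probes that the study's lists hold for the locus are annotated there to the related MIR4435-1HG (A_21_P0012079 and A_21_P0012078) or carry no symbol (A_21_P0012077). They were also lower in every pair, with log2 fold changes of -2.44 and -2.97 in A172 and U87 on A_21_P0012079, called in both lines, -1.16 and -1.62 on A_21_P0012077, called in U87, and -1.53 and -2.08 on A_21_P0012078, called in neither.

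The arrays of the lines differed in brightness. Between 57.3% and 69.0% of non-control spots were well above background, as called by the scanner software, on the A172 arrays and between 35.7% and 48.3% on the U87 arrays. The 75th percentile of the processed signal was 131 to 284 in A172 and 33.0 to 69.0 in U87. U87 set 3 was the dimmest pair, with 35.7% of spots well above background on its control array and 40.4% on its knockdown array. All 8 U87 arrays share a slide that holds no A172 array, so that the level of a transporter in A172 against U87 cannot be told apart from the slide.

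Most of these transporters gave a signal in both lines. In A172, 14 of the 17 probes were well above background on at least 1 array and 11 on every array. In U87 the counts were 12 and 10. A probe was tested in a line when 3 or more arrays of a group passed that detection call. This held for 11 probes in each line, which read 8 genes, all but ABCB1.

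**Figure D1:**
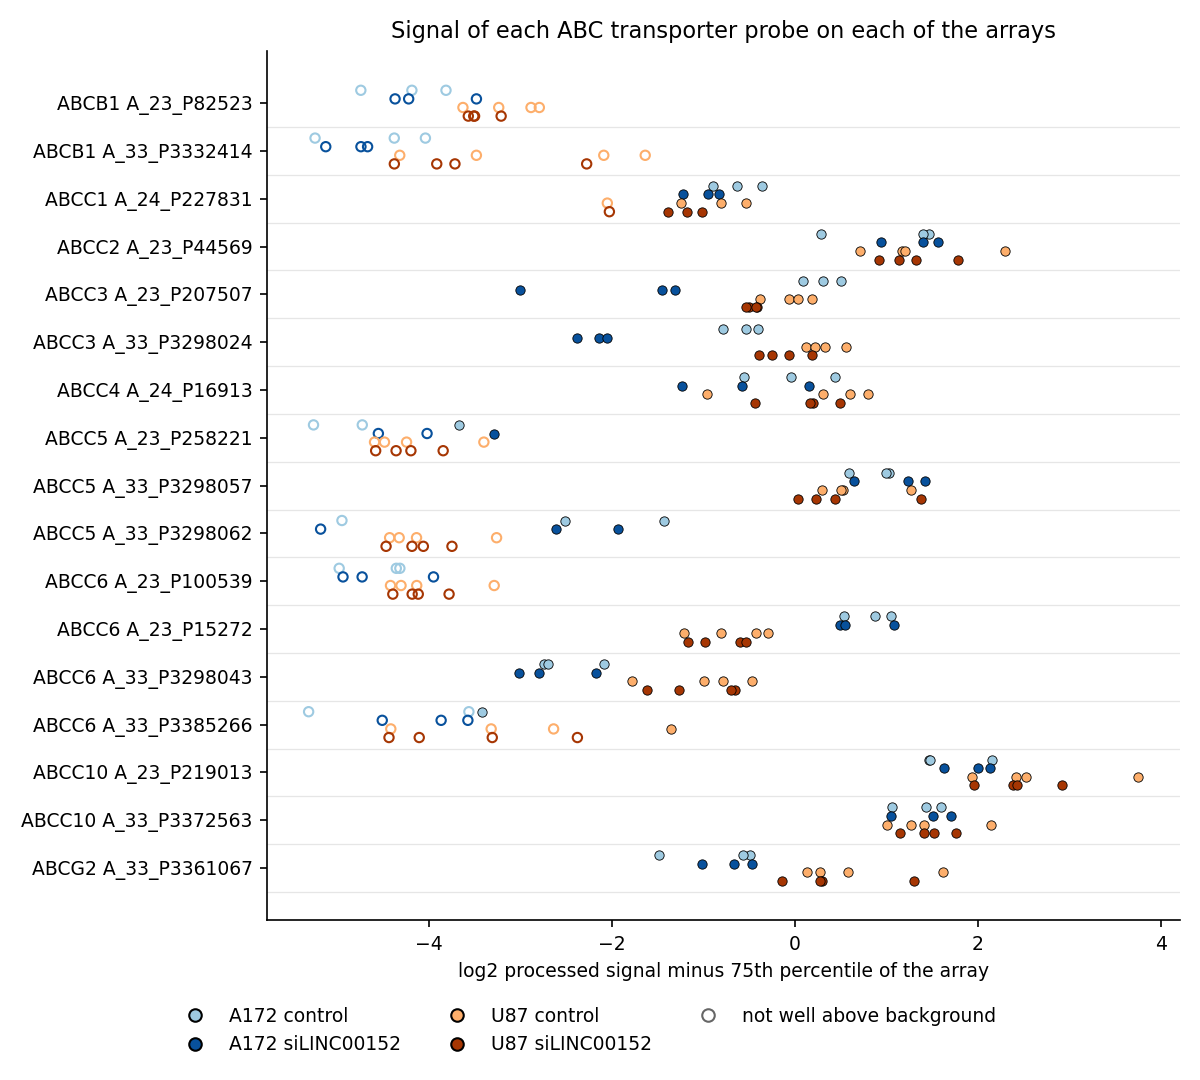
Level of each of the 17 probes on each of the 14 arrays, on the horizontal axis as log2 processed signal minus the 75th percentile of the array. Filled circles are arrays on which the probe was well above background and open circles those on which it was not; the A172 siLINC00152 arrays of both ABCC3 probes lie to the left of all their other arrays.

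ABCC3 was the member with the largest shift in A172. Its level was lower after siLINC00152 on both probes and in 3 of 3 pairs, and the A172 groups did not overlap on either probe. These A172 values were known when the genes were chosen. In U87 both ABCC3 probes were also lower in 4 of 4 pairs, by a smaller amount that was not called. The share of all tested probes with every pair lower or with separate groups was not counted, so nothing is read from these patterns. The other 9 tested probes, of 7 genes, had log2 fold changes between -0.50 and 0.25 in A172 and between -0.24 and 0.00 in U87.

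ABCC3 encodes MRP3, an exporter of glucuronide conjugates and bile salts on the basolateral side of epithelial cells. On probe A_23_P207507 the A172 control levels were 0.08, 0.51 and 0.31 in sets 1, 2 and 3, and the siLINC00152 levels were -3.01, -1.45 and -1.31. Set 1 had both the lowest control level and the lowest knockdown level, and every knockdown array lay below every control array. The processed signal behind these levels was 186 to 301 on the control arrays and 25.8 to 77.0 on the knockdown arrays, and all 6 arrays stayed well above background. The means were 0.30 ± 0.21 (SD, n = 3) and -1.92 ± 0.94 (SD, n = 3), a log2 fold change of -2.22 (SE 0.37) that left 21.4% of the control signal, and the pairs differed by -3.09, -1.96 and -1.62.

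The other ABCC3 probe, A_33_P3298024, read -0.53, -0.79 and -0.40 in the A172 controls of sets 1, 2 and 3 and -2.39, -2.14 and -2.06 after siLINC00152. The knockdown arrays were again all below the control arrays. The means were -0.58 ± 0.20 (SD, n = 3) and -2.19 ± 0.17 (SD, n = 3), a log2 fold change of -1.62 (SE 0.24) that left 32.6% of the signal, with pair differences of -1.86, -1.35 and -1.65. Across all 14 arrays the levels of the ABCC3 probes, each with its line's mean subtracted, had a Pearson r of 0.867, a figure that contains the A172 difference itself.

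The size of the A172 shift differed between ways of preparing the signal. With a normexp background on the median signal and an offset of 50, choices that were not tried apart, the log2 fold changes were -1.27 and -0.90, against -2.18 and -1.53 with quantile normalization and -2.19 and -1.57 on the authors' own log2 values, so the direction held on these scales while the normexp values were smaller by more than 1.5 times. In the fit without a block, both ABCC3 probes were no longer past the limits with each line fitted alone, at unchanged fold changes of -2.22 and -1.62; why was not tested. The call of A_23_P207507 was lost without A172 control 3 (-2.22) or without set 2 (-2.36), that of A_33_P3298024 without set 1 (-1.50), and both without set 3 (-2.52 and -1.60). With the sets as a replicate block both ABCC3 probes stayed past the limits, also with each line fitted alone and without each of the 3 A172 sets in turn, alternatives that were chosen after seeing the data.

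In U87 the ABCC3 levels were closer together. Probe A_23_P207507 read -0.07, 0.03, -0.38 and 0.18 in the controls of sets 1 to 4 and -0.42, -0.50, -0.53 and -0.43 after siLINC00152. The groups did not overlap, although control 3 (-0.38) lay close to the highest knockdown array (-0.42). Its log2 fold change was -0.41 (SE 0.32, 95% confidence interval -1.09 to 0.27), the pairs differed by -0.36, -0.53, -0.15 and -0.61, and the limma adjusted p was 1.00, or 0.384 with the sets as a replicate block.

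On A_33_P3298024 the U87 control levels were 0.13, 0.21, 0.56 and 0.33 and the siLINC00152 levels -0.26, -0.07, 0.19 and -0.39. Here the groups overlapped, because knockdown 3 lay above control 1. The log2 fold change was -0.44 (SE 0.21, 95% confidence interval -0.89 to 0.01) and the limma adjusted p was 1.00. With the replicate block the interval was -0.73 to -0.15 and the adjusted p 0.166, below the FDR limit of 0.2, but the size stayed under the limit of 0.5 and the probe was not called. In set 3 the pair difference of -0.37 came with the same processed signal, 48.5, on both arrays, whose 75th percentiles were 33.0 and 42.6. Without set 3 the log2 fold changes were -0.50 and -0.46, and with a normexp background they were -0.16 and -0.22, both more than 1.5 times smaller.

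**Figure D2:**
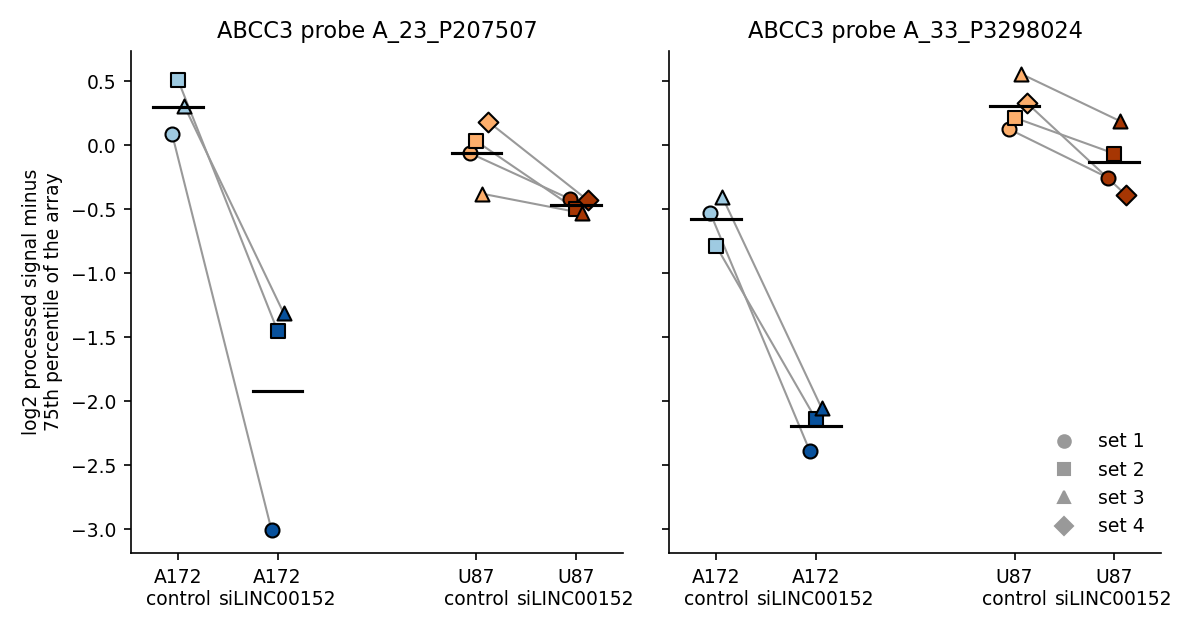
ABCC3 level (vertical axis, log2 processed signal minus the 75th percentile of the array) on each array, with a line joining the control and siLINC00152 arrays of a set and a black bar at each group mean. Every line slopes down, from means of 0.30 to -1.92 and -0.58 to -2.19 in A172 and from -0.06 to -0.47 and 0.31 to -0.13 in U87.

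The ABCC3 probes ordered the groups differently. On A_23_P207507 the order from high to low was A172 control (0.30), U87 control (-0.06), U87 siLINC00152 (-0.47) and A172 siLINC00152 (-1.92), and the arrays of the A172 and U87 controls overlapped. On A_33_P3298024 it was U87 control (0.31), U87 siLINC00152 (-0.13), A172 control (-0.58) and A172 siLINC00152 (-2.19), and the highest A172 control (-0.40) lay just under the lowest U87 knockdown array (-0.39). On both probes the A172 knockdown arrays were lowest on this scale. The processed signal of A_23_P207507 was 25.8 to 77.0 on them and 29.5 to 48.3 on the U87 knockdown arrays. That of A_33_P3298024 was 75.9 to 196 in A172 controls and 48.5 to 86.9 in U87 controls. The order of the lines therefore depends on the percentile subtracted from each array.

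The effect of siLINC00152 on ABCC3 differed between the lines by -1.81 (A172 minus U87, SE 0.48, 95% confidence interval -2.85 to -0.77) on A_23_P207507 and by -1.18 (SE 0.32, 95% confidence interval -1.87 to -0.50) on A_33_P3298024. These differences contain the A172 contrast by which ABCC3 was chosen and are a description. For the other 9 probes the difference was between -0.42 and 0.46, with standard errors of 0.40 to 0.62. Of the 11 probes tested in both lines, limma called 0, and 0.00945% of all 21163 probes were called. With the replicate block 2 of the 11 were called, both of ABCC3, beside 0.421% of all probes, and 0 or 1 with the block and any set left out, alternatives chosen after seeing the data.

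A probe was called when its FDR was under 0.2 and its log2 fold change lay beyond 0.5 in either direction. In A172, 2 of the 11 probes met these limits, the ABCC3 probes that were known to be lower when the genes were chosen, beside 0.183% of the 28338 probes tested. With the replicate block the same 2 probes met them, beside 3.26% of all probes. These A172 counts follow from the choice of the genes and are no result. In U87 limma called 0 of 11 probes, and 0.0502% of the 21921 probes tested were called. With the replicate block 0 were called in U87, beside 4.19% of all probes.

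**Figure D3:**
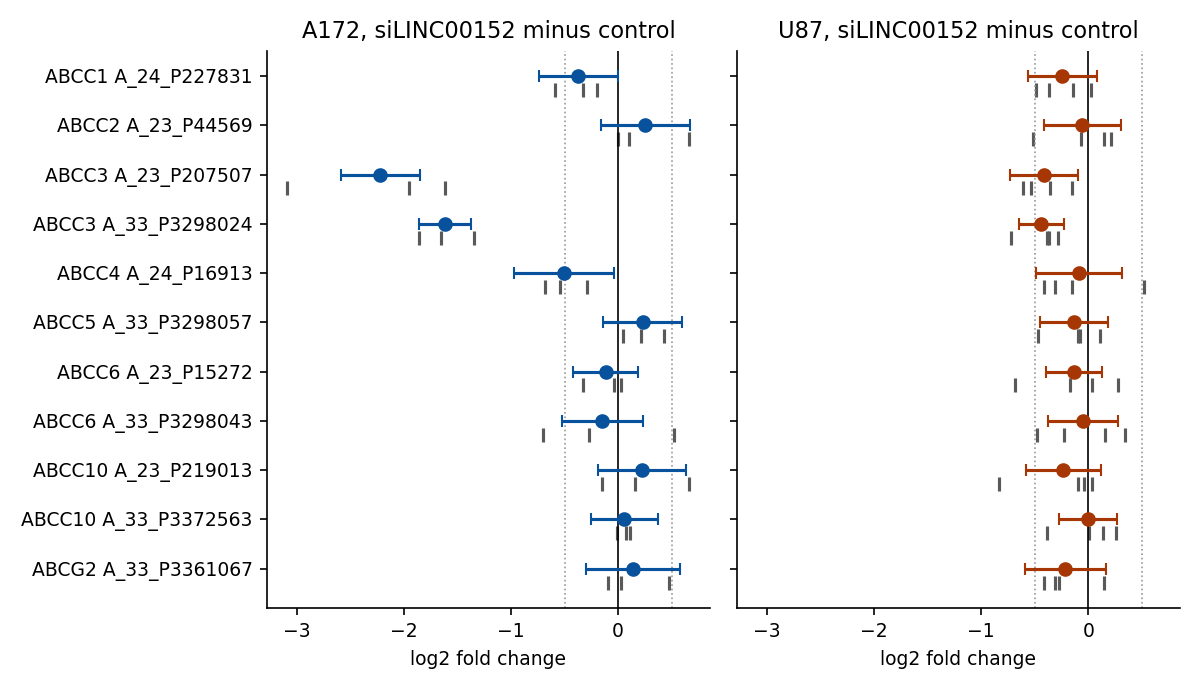
Log2 fold change of siLINC00152 against control for the 11 tested probes in A172 (left) and U87 (right). Points are fitted values with bars of 1 standard error, short vertical ticks are the differences of the single pairs, and dotted lines mark -0.5 and 0.5; the ABCC3 points in A172 lie at -2.22 and -1.62 and no U87 point passes -0.5.

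ABCC1 and ABCC2, the relatives of ABCC3 that also export conjugates, did not show a shift of that size. ABCC1 encodes MRP1, an exporter of glutathione conjugates and of several anticancer drugs. Its probe read -0.36, -0.64 and -0.90 in the A172 controls of sets 1 to 3 and -0.96, -0.83 and -1.22 after siLINC00152. The level was lower in each of the 3 pairs, but the groups overlapped. The log2 fold change was -0.37 (SE 0.37, or 0.14 with the replicate block), and ABCC1 was past the limits in neither fit. In U87 the ABCC1 control levels were -1.24, -0.81, -2.05 and -0.53 and the knockdown levels -1.39, -1.18, -2.03 and -1.02. Both arrays of set 3 were the lowest of their groups and the only U87 arrays on which ABCC1 was not well above background. In U87 the log2 fold change was -0.24 (SE 0.32, limma adjusted p 1.00), lower in 3 of 4 pairs, and -0.33 without set 3. Single arrays moved this value further, to -0.54 without control 3 and to -0.04 without control 4.

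ABCC2 encodes MRP2, the apical counterpart of ABCC3 that exports conjugates into bile. Its probe read 0.29, 1.47 and 1.40 in the A172 controls and 0.94, 1.57 and 1.40 after siLINC00152. The pair of set 1 differed by 0.66 and that of set 2 by 0.10, and control 1 was the lowest of the 6 arrays. The A172 log2 fold change was 0.25 (SE 0.42), and it was -0.13 without control 1. In U87 the ABCC2 levels were 1.17, 1.20, 2.30 and 0.71 in controls and 1.32, 1.13, 1.79 and 0.92 after siLINC00152, with set 3 highest in both groups, and the log2 fold change was -0.06 (SE 0.36, limma adjusted p 1.00; 2 pairs lower, 2 higher), or 0.10 without set 3.

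ABCC4 and ABCC5 encode MRP4 and MRP5, exporters of cyclic nucleotides and nucleotide analogues. ABCC4 read 0.44, -0.56 and -0.04 in the A172 controls of sets 1 to 3 and 0.16, -1.24 and -0.58 after siLINC00152. Each pair was lower, with differences of -0.29, -0.68 and -0.54, while the sets themselves lay further apart than the pairs, so that the groups overlapped. Its log2 fold change in A172 was -0.50 (SE 0.47, or 0.19 with the replicate block), and ABCC4 was past the limits in neither fit. The value was -0.86 without knockdown 1 and -0.16 without knockdown 2. It passed the limits in A172, at -0.50, with the replicate block when the lines were fitted apart or when U87 set 3 was left out, alternatives that were chosen after seeing the data. In U87 the ABCC4 control levels were 0.60, 0.31, -0.96 and 0.80 and the knockdown levels 0.19, 0.16, -0.44 and 0.49. Sets 1, 2 and 4 were lower after siLINC00152 and set 3 was higher by 0.52, with a log2 fold change of -0.09 (SE 0.40, limma adjusted p 1.00) over all sets and -0.29 without set 3. Leaving out single arrays moved this U87 value to -0.47 (without control 3) and to 0.12 (without control 4).

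Of the 3 ABCC5 probes, A_33_P3298057 was well above background on all 14 arrays. Its A172 levels were 0.60 to 1.03 in controls and 0.65 to 1.42 after siLINC00152, and among the 11 tested probes it alone was higher in each A172 pair, by 0.05 to 0.43. The log2 fold change of ABCC5 was 0.23 (SE 0.37) in A172 and -0.13 (SE 0.32, limma adjusted p 1.00, lower in 3 of 4 pairs) in U87, less than the spread between arrays in both. Leaving out single arrays moved the U87 value to -0.42 (without knockdown 3) and to 0.08 (without control 3). ABCC5 probe A_33_P3298062 was well above background on the control and knockdown arrays of A172 sets 1 and 3 and on no other array. Its levels there were -1.43 and -2.51 in controls and -1.93 and -2.62 after siLINC00152, whereas in set 2 they were -4.96 and -5.19. The third ABCC5 probe, A_23_P258221, was well above background on the A172 control and knockdown arrays of set 1 alone.

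ABCC6 encodes MRP6, a liver and kidney exporter whose loss causes the calcification disorder pseudoxanthoma elasticum. Of its 4 probes A_23_P15272 and A_33_P3298043 were well above background on all 14 arrays. Levels of A_23_P15272 spanned 0.50 to 1.08 over the A172 arrays and -1.21 to -0.29 over the U87 arrays, while those of A_33_P3298043 spanned -3.02 to -2.09 and -1.78 to -0.47. On this scale the probes placed the lines in opposite order, the first with every A172 array above every U87 array and the second with every A172 array below. The processed signal of A_33_P3298043 overlapped, at 21.3 to 42.2 in A172 and 20.1 to 38.5 in U87. Its order therefore rests on the percentile subtracted from each array. On A_23_P15272 the processed signal was 273 to 411 in A172 and 21.6 to 42.1 in U87. The ABCC6 log2 fold changes were -0.11 (SE 0.30) and -0.15 (SE 0.38) in A172 and -0.14 (SE 0.26) and -0.05 (SE 0.33) in U87, with limma adjusted p of 1.00 for both in U87 and 2 of 4 pairs lower on each. The other ABCC6 probes gave next to no signal: A_33_P3385266 was well above background on A172 control 1 and U87 control 1, and A_23_P100539, averaged over 10 spots an array, on none.

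ABCC10 encodes MRP7, which counts taxanes among its substrates. Probe A_23_P219013 read 1.47, 2.15 and 1.48 in the A172 controls and 2.13, 2.00 and 1.63 after siLINC00152, and in U87 it read 2.42, 2.52, 3.76 and 1.93 in controls and 2.39, 2.43, 2.92 and 1.96 after siLINC00152. Control 3 of U87 had the highest level, although its processed signal, 445, was below that of every A172 array. The log2 fold changes of that ABCC10 probe were 0.22 (SE 0.41) in A172 and -0.23 (SE 0.35, limma adjusted p 1.00, 3 of 4 pairs lower) in U87, and the latter was 0.13 without control 3. On the other ABCC10 probe, A_33_P3372563, they were 0.06 (SE 0.31) in A172 and 0.00 (SE 0.27, limma adjusted p 1.00, 1 of 4 pairs lower) in U87.

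ABCG2, also called BCRP, is a half-transporter that works as a dimer and marks side-population cells that expel dye. It read -1.49, -0.50 and -0.57 in the A172 controls and -1.02, -0.47 and -0.66 after siLINC00152, with set 1 lowest in both groups. In U87 the ABCG2 levels were 0.27, 0.58, 1.62 and 0.13 in controls and -0.14, 0.30, 1.31 and 0.28 after siLINC00152, with set 3 highest in both groups. On this scale every U87 array lay above every A172 array. The processed signal was 93.1 to 126 in A172 and 55.2 to 105 in U87, so that order rests on the percentile subtracted from each array. The log2 fold change of ABCG2 was 0.14 (SE 0.44) in A172 and -0.21 (SE 0.38, limma adjusted p 1.00, 3 of 4 pairs lower) in U87. Single arrays turned both signs: the A172 value was -0.18 without control 1, and the U87 value was 0.11 without control 3, or -0.18 without the whole of set 3.

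ABCB1 encodes P-glycoprotein, the multidrug pump of the blood-brain barrier. Neither of its probes was well above background on any of the 14 arrays. Probe A_23_P82523, averaged over 10 spots an array, had levels of -4.75 to -3.48 in A172 and -3.63 to -2.80 in U87, and A_33_P3332414 had levels of -5.25 to -4.04 and -4.38 to -1.64. ABCB1 RNA was thus not detectable at this signal over background in either line, with or without siLINC00152, and no fold change is given.

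Taken by count, 6 of the 11 fitted A172 values were below 0 and 5 above, and the median was -0.11, against 0.02 over all tested probes, of which 45.7% were below 0. In U87 10 were below 0 and 1 above, with a median of -0.14 against -0.02 over all tested probes, of which 52.6% were below 0. On the normexp, quantile and authors' scales the U87 direction of each probe was the same, and in A172 it turned on 1 scale for 1 probe, ABCC6 A_33_P3298043 (0.02 with normexp). Without U87 set 3 the log2 fold change turned positive for ABCC2 (0.10) and for both ABCC6 probes (0.05 and 0.01). Whichever array or set was left out in the fit without a block, ABCC1 and both ABCC3 probes stayed below 0 in U87, and each of the other tested probes changed sign at least once; in A172 the sign of ABCC1, ABCC3, ABCC4, ABCC5 and ABCC10 A_23_P219013 held, though ABCC5 came down to 0.07 without knockdown 3 and ABCC10 A_23_P219013 to 0.00 without set 1, and that of the others did not. The median standard error of the 11 probes in U87 was 0.32, or 0.16 with the replicate block at the same number of arrays.

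The genes most like ABCC3 across the arrays were taken for probe A_23_P207507 after subtracting each line's mean, over 14 arrays and 14940 probes. TUBA4A, an alpha-tubulin, had a Pearson r of 0.944 (0.966 in the 6 A172 arrays, 0.738 in the 8 U87 arrays), and JADE2, a subunit of a histone acetyltransferase complex, had 0.940 (0.959 and 0.620). The non-coding RNA MSC-AS1 had 0.903 (0.942 and 0.631), OASL, an interferon-induced protein, 0.895 (0.908 and 0.616), and RIN3, a regulator of endocytic RAB5, 0.893 (0.945 and 0.40). All 5 were lower in A172 after siLINC00152, with log2 fold changes of -0.93, -1.38, -1.26, -3.09 and -0.94 in that order, while in U87 their values were -0.22, -0.25, -0.35, -0.08 and 0.02. The likeness therefore contains the A172 difference by which ABCC3 was chosen.

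Other genes of drug handling were followed in 4 lists, also chosen with earlier results of these data known. Of 39 other ABC transporters 38 were on the array, and 26 probes in A172 and 23 in U87 were tested; limma called 0 in each line, and the median log2 fold changes were -0.04 and 0.09. With the replicate block 1 was called, ABCA1, the cholesterol exporter, in A172, which is 3.85% of the list's tested probes beside 3.26% of all probes. Its level was -0.89 ± 1.29 (SD, n = 3) in controls and -1.71 ± 1.04 (SD, n = 3) after siLINC00152, with a log2 fold change of -0.82 (SE 1.08, adjusted p 1.00, or 0.139 with the block), lower in 3 of 3 pairs, and between -1.42 and -0.07 when an array or set was left out. With a normexp background it was -0.50, and the other tested ABCA1 probe, A_33_P3422897, was at -0.43 and was not called.

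The receptors and factors that control transporter genes numbered 17, with 16 on the array and 12 probes tested in A172 and 11 in U87. Limma called 0 in either line, with medians of 0.05 and 0.01. With the block 1 was called, PPARG, a lipid-sensing nuclear receptor, higher in U87, which is 9.09% of the list's probes there beside 4.19% of all probes. It passed the detection filter only through the knockdown group, where it is higher, so that a call in this direction was favoured. PPARG was at -2.19 ± 0.18 (SD, n = 4) in controls, with 2 of 4 arrays well above background, and at -1.39 ± 0.35 (SD, n = 4) after siLINC00152, with 3 of 4. The log2 fold change was 0.80 (SE 0.26, adjusted p 1.00, or 0.0811 with the block), higher in 4 of 4 pairs, and 0.14 with a normexp background.

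The list of enzymes that form the conjugates carried by ABCC1, ABCC2 and ABCC3, of glutathione metabolism, and of drug oxidation and the oxidative stress response (CYP1A1, CYP1B1, CYP3A4, CYP3A5, CYP2C8, NQO1, HMOX1 and TXNRD1) numbered 34, of which 29 were on the array and 29 probes in A172 and 26 in U87 were tested. Limma called 0, with medians of 0.05 and 0.14. With the block 1 was called in each line, 3.45% in A172 and 3.85% in U87, near the 3.26% and 4.19% of all probes. With it GSTT2, a glutathione transferase, was called higher in A172 (from -0.22 ± 0.10 to 0.55 ± 0.46, SD, n = 3; log2 fold change 0.77, adjusted p 1.00, or 0.183 with the block; 3 of 3 pairs). NQO1, a quinone reductase, was called higher in U87 (from -1.30 ± 1.38 to -0.51 ± 0.78, SD, n = 4; log2 fold change 0.79, adjusted p 1.00, or 0.167 with the block; 4 of 4 pairs; 0.17 with a normexp background, and 0.12 to 1.18 when an array or set was left out).

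Of 24 drug uptake and other export carriers 23 were on the array, and 9 probes were tested in A172 and 5 in U87, with medians of -0.12 and 0.05. Limma called 0 in each line. With the block 1 was called in each, 11.1% of 9 probes in A172 beside 3.26% of all probes and 20% of 5 probes in U87 beside 4.19%, and with so few probes these shares say little about the list. The major vault protein MVP was the probe called lower in A172 (from 2.27 ± 0.25 to 1.66 ± 0.53, SD, n = 3; log2 fold change -0.61, adjusted p 1.00, or 0.153 with the block; 3 of 3 pairs; -0.90 to -0.38 when an array or set was left out). The organic anion carrier SLCO4A1 was called higher in U87 (from -1.49 ± 0.98 to -0.18 ± 0.31, SD, n = 4; log2 fold change 1.31, adjusted p 1.00, or 0.102 with the block; 4 of 4 pairs; 0.36 with a normexp background, and 0.84 to 1.54 when an array or set was left out). These calls of list genes with the block held in at most 4 of the 8 other blocked fits, with a set left out or each line alone, which were chosen after seeing the data: NQO1 was called in 1 of them, GSTT2 and MVP in 2, ABCA1 in 3, and PPARG and SLCO4A1 in 4. The absolute log2 fold change over all tested probes had a median of 0.14 in A172 and 0.17 in U87.

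**Figure D4:**
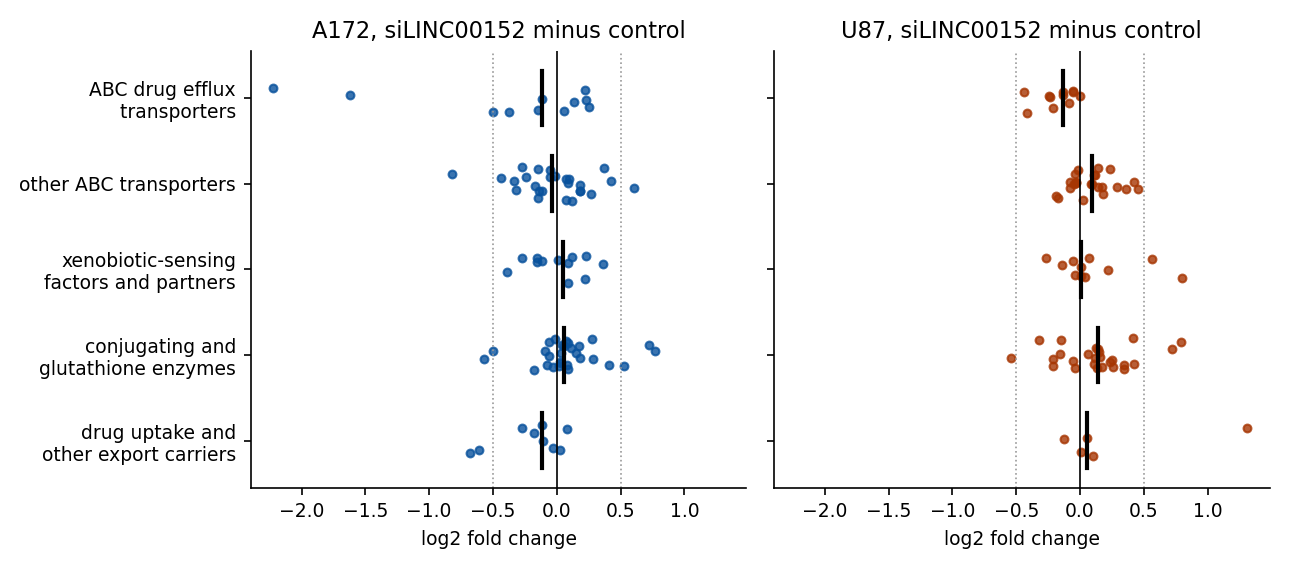
Log2 fold change of siLINC00152 against control for each tested probe of the 9 efflux transporter genes and of the 4 lists, in A172 (left) and U87 (right), with a black bar at each median and dotted lines at -0.5 and 0.5. Points are spread vertically for legibility; the ABCC3 probes, at -2.22 and -1.62, are the lowest values of the A172 panel.

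The RefSeq promoter table (GRCh38.p14, 250 bases before to 50 after a start site) holds 7 of the 9 genes with 14 start sites, and has no entry for ABCC1 and ABCC3. Letters of sites bound by factors that control transporter genes, and of a STAT motif, were searched on both strands. The core of the antioxidant response element, TGACNNNGC, was present at 3 of the 14 start sites and in 13.3% of all 35116 promoters, and the core of the xenobiotic response element, GCGTG, at 7 of 14 and in 36.5%. Of the 7, 3 are ABCG2 windows that overlap one another, so that the same letters may be counted at more than 1 start site. The STAT motif TTCNNNGAA, which may overlap the others, was present at 2 of 14 and in 7.66%. The promoters of ABCC2 and ABCC4 are shown because both are textbook targets of such factors, as a window without and a window with the letters. Capitals mark TGACNNNGC and GCGTG on either strand, of which ABCC4 has 1 and 3 and ABCC2 has 0 of both. A start site of ABCC10 also has 1 and 3, and start sites of ABCG2 hold each motif. The letters are a description of these windows, and binding there was not measured.

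ABCC2, chr10:99782390-99782689, + strand: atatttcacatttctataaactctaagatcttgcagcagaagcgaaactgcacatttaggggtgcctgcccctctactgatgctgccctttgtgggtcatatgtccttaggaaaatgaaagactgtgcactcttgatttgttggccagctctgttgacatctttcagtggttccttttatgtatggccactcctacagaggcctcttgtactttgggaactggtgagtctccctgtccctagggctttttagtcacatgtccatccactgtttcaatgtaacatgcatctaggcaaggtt
ABCC4, chr13:95301402-95301701, - strand: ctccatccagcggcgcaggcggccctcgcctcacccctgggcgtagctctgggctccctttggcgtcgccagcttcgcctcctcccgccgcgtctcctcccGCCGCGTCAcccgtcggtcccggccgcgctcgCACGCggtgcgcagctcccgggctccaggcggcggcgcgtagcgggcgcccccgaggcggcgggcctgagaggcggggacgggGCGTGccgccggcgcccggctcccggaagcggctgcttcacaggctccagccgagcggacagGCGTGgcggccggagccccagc

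The labelled cell type was checked on 11 markers of glioma and astrocytes. VIM, NES, CD44 and CHI3L1 were detected well enough for a test in both lines, together with SOX2, OLIG2 and SLC1A3 in A172. S100B and PTPRZ1 were well above background on no array of either line, AQP4 on no A172 array, and GFAP and SOX2 on no U87 array. Some markers of other cells also passed the detection filter in these cultures: 5 of 7 endothelial genes in A172 and 4 in U87, 3 and 2 of 5 leukocyte and microglial genes on the array, and 5 and 4 of 6 neuronal genes. Limma called 0 marker probes in either line, and with the replicate block 1, CD44 probe A_33_P3294509 in A172 (log2 fold change -1.13, SE 0.56), where 3.26% of all probes were called; the other CD44 probe, A_21_P0000152, was at -0.24 and was not called.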

How the data were processed

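The authors deposited scanner files of Agilent Feature Extraction with the processed signal as a linear intensity, background-subtracted and not normalized between arrays, and a matrix of log2 values that the authors had normalized between arrays to a common distribution. Here the intensity was taken as log2, the 75th percentile over 58717 non-control spots was subtracted, spots the scanner software marked as outliers were dropped and spots of a probe averaged. A probe counted as well above background where at least 0.5 of its spots were. Probes were named by accession through the RefSeq gene table (29033 of 50599 probes); the array design is annotated to hg19, so no probe coordinates are given. A limma 3.58.1 model (R 4.3.3) with 4 group means over 14 arrays gave each contrast, adjusted by Benjamini-Hochberg over all probes tested in it. Differences of probe levels from the group mean had a Pearson r of 0.675 to 0.795 between arrays of the same A172 set and 0.373 to 0.864 of the same U87 set, and of -0.701 to -0.0436 and -0.772 to 0.411 between different sets; in A172 a set is also a slide. Counts of calls are therefore given from blocked fits beside the unblocked ones. For single probes the blocked values are given in some cases only, and standard errors are unblocked unless the block is named. Members and lists were chosen with earlier results of these data known. Alternatives were a replicate block, normexp background (median signal), quantile normalization, the authors' values, other detection filters, kept outlier spots, FDR 0.05, each line alone and leaving out each array or set. The procedure was also run on simulated data, and no result given here rests on that run.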

Additional observations from a re-analysis of the deposited data

Results flagged for a closer look

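The difference between the lines in the effect of siLINC00152 on ABCC3 passed the limits in the fit with the replicate block, and in the fit without it 0 of 11 probes did. With the block and any set left out, alternatives chosen after seeing the data, 0 or 1 did. A172 minus U87 was -1.81 on probe A_23_P207507 (standard error 0.34 with the block, 0.48 without) and -1.181 on A_33_P3298024 (0.19 and 0.32). Both probes were lower in 3 of 3 A172 pairs and 4 of 4 U87 pairs, and neither was called in U87. With the block the limma adjusted p of A_33_P3298024 in U87 was 0.166, below 0.2, but its size of -0.44 was under the limit of 0.5. The A172 contrast by which ABCC3 was chosen is part of the difference between the lines, which is a description and no test. The brightness of the arrays and the slide also differ between the lines and cannot be told apart from it. A search for single samples far from the rest in the U87 groups of the 11 tested probes found 0 of 22 groups over Dixon's limit.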

How the results depend on the processing

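The number of A172 probes called, 2 in the unblocked fit, was 0 with each line fitted alone and 0 to 2 when arrays or sets were left out (0 without set 3); the cause was not tested. It was 2 with the replicate block, normexp, quantile normalization, the authors' values, either detection filter, kept outlier spots and FDR 0.05. Alternatives chosen after seeing the data, the block with each line fitted alone and the block without U87 set 3, gave 3, ABCC4 being the addition, and the block without each A172 set in turn gave 2. U87 gave 0 under every alternative run. The number whose effect differed between the lines, 0, was 2 with the block and, chosen after seeing the data, 1 with the block without U87 set 3 and 0 with the block without any other set; the cause was not tested. The block changed no other call of a member. Of the fold changes of the other 9 probes, 340 of 342 values in A172 and 340 of 341 in U87 moved by no more than 1 standard error with no call gained; the exceptions were ABCC4, called as above in A172, and ABCC10 A_23_P219013 in U87, 0.13 without control 3. Signal over background is lowest in U87 set 3, where ABCC1 was not detected.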
